A study of Gallus gallus with 10 samples.

Results

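The region-specific culture response is the change of each gene on explant culture in posterior placode progenitors (pPPs) minus its change in anterior placode progenitors (aPPs). It was estimated from all 10 Affymetrix chicken arrays of the series, which were used whole. There were 3 arrays of aPPs and 3 of pPPs, dissected from the anterior and posterior preplacodal region (PPR) of unmanipulated chick embryos and processed directly. A further 2 arrays held cultured aPPs and 2 held cultured pPPs, which are the same tissues embedded in rat tail collagen for 5 hr. Sample titles give the stage as HH6 and other labels give a range from HH5 to HH7. No array holds tissue left in the embryo for those 5 hr, so that culture and added age cannot be told apart. The labels do not say whether the numbered sets came from separate embryos, and p-values measure only the spread between these arrays.

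The PPR is a band of ectoderm beside the anterior neural plate from which the cranial sense organs and many sensory neurons arise. Its anterior part gives rise to the lens, the olfactory epithelium and the anterior pituitary, and its posterior part to the inner ear and the epibranchial ganglia. Isolation in collagen removes the tissue from the neural plate, mesoderm and endoderm that signal to it in the embryo through FGFs, BMPs, Wnts, retinoic acid and other factors. Lens character is known to be shared by early placode progenitors, and PAX6, a homeodomain factor of lens and olfactory progenitors, marks it.

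The signal of a probe set is given in arbitrary units after quantile normalization, and differences are given as log2 of the signal plus 16, which understates the change of dim genes. The preplacodal genes DLX5 and EYA2 were detected on each of the 8 arrays with usable detection calls, with signals of 1620 to 2920 for DLX5. Replicate arrays of a group correlated at 0.976 to 0.99. For the array titled cultured pPP set 2, the deposited column of the same signals is named as cultured anterior tissue. It was used under its title. Over the 408 probe sets called between pPPs and aPPs before culture, this array differed from the cultured aPPs in the posterior direction for 356 (87.3%), against 299 (73.3%) for cultured pPP set 1. Values without this array are given beside the main results. The detection column of cultured aPP set 1 is named as a re-scan, and any effect of that on its values was not tested.

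Among 21591 probe sets, 849 were called in the culture response of pPPs (3.93%) and 801 in that of aPPs (3.71%), at an adjusted p under 0.05 in limma. Increases made up 483 of the calls in pPPs (2.24%) and 454 of those in aPPs (2.10%), and 197 probe sets rose in both regions. With scaling by the trimmed mean, the split between increases and decreases was 440 to 449 in pPPs and 422 to 537 in aPPs. Without the array cultured pPP set 2, it was 426 to 536 in pPPs and 489 to 372 in aPPs. Decreases numbered 366 in pPPs (1.70%) and 347 in aPPs (1.61%), with 119 in common. The shared increases were 40.8% of those in pPPs and 43.4% of those in aPPs, and the shared decreases 32.5% and 34.3%.

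A call in one region and none in the other does not show that the regions differed, and the difference itself was tested for each probe set. It was called for 3 of the 21591 probe sets (0.0139%), 2 with a higher response in pPPs (0.00926%) and 1 with a higher response in aPPs (0.00463%). At an unadjusted p under 0.05 there were 1335 (6.18%), and at an adjusted p under 0.1 there were 15 (0.0695%). With the set number of the arrays as a block, 15 probe sets were called, 11 higher and 4 lower in pPPs, and these include the 3. The median difference over all probe sets was 0, and its median standard error was 0.29.

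The 1016 probe sets called in one region only can be divided by direction. Of the 286 that rose in pPPs and were not called in aPPs, the difference was called for 2 and had an unadjusted p under 0.05 for 114. Their median response was 0.94 in pPPs and 0.41 in aPPs. The 256 that rose in aPPs and were not called in pPPs had medians of 0.94 in aPPs and 0.43 in pPPs, with the difference called for 1. For none of the 246 decreases called only in pPPs or the 228 called only in aPPs was the difference called, and 96 and 103 of them had an unadjusted p under 0.05. These medians and the counts at an unadjusted p under 0.05 come from probe sets chosen by calls on the same arrays, and are a description. Over all probe sets, 1335 (6.18%) reached that p.

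**Figure D1:**
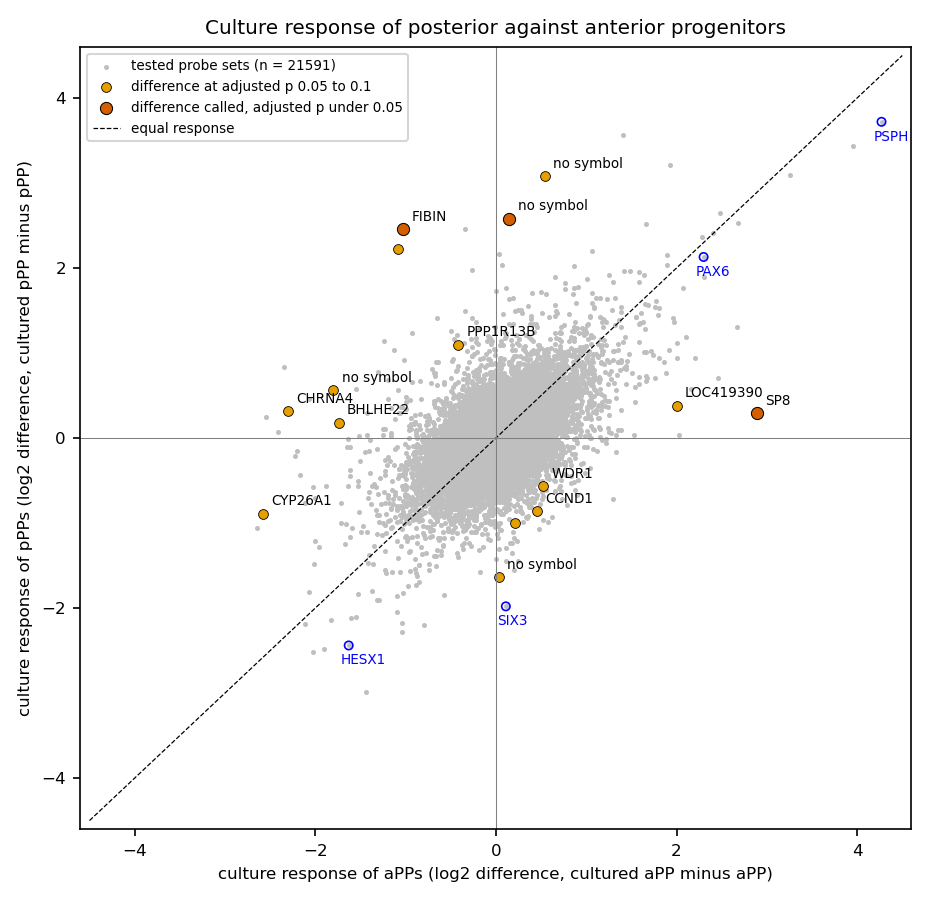
Culture response of pPPs (vertical axis) against that of aPPs (horizontal axis) for the 21591 tested probe sets, both as log2 differences. The 3 probe sets whose responses differed are SP8 on the right, near 0 in pPPs, FIBIN at 2.46 in pPPs, and a probe set with no symbol at 2.58 in pPPs. Another probe set with no symbol lies higher, at 3.08 in pPPs, and its difference was not called. PAX6 and PSPH lie near the line of equal response.

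SP8, a zinc finger transcription factor known from limb outgrowth and forebrain patterning in the mouse, rose in aPPs only. Its signals were 123, 123 and 114 on the aPP arrays and 871 and 1120 on the cultured aPP arrays. In pPPs they were 1240, 858 and 1180, and after culture 1180 and 1490. SP8 was thus low only in uncultured aPPs, whose 3 arrays lay below all 7 others. The response was 2.89 in aPPs (adjusted p = 2.58e-07) and 0.29 in pPPs (adjusted p = 0.426). The difference was -2.59 (SE 0.25, 95% interval -3.13 to -2.06, adjusted p = 0.000514, limma). Without the array cultured pPP set 2 it was -2.76 (adjusted p = 0.00306). Before culture SP8 was higher in pPPs by 3.01, and after culture the regional difference was 0.42.

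FIBIN, which encodes a secreted protein named for its part in the pectoral fin bud of the zebrafish, rose in pPPs only. The pPP arrays had signals of 76.1, 25.2 and 93.1, and the cultured pPP arrays 528 and 294. The aPP arrays had 883, 1410 and 1540, and the cultured aPP arrays 640 and 566. Cultured pPPs lay above pPPs without overlap and cultured aPPs below aPPs without overlap, although only the first change was called. The response was 2.46 in pPPs (adjusted p = 0.00104) and -1.03 in aPPs (adjusted p = 0.128), and the difference was 3.49 (SE 0.49, 95% interval 2.45 to 4.53, adjusted p = 0.0195, limma). The regional difference was -4.08 before culture and -0.59 after it. A second FIBIN probe set gave a difference of 3.30 that missed the threshold (adjusted p = 0.0821). The call was lost without aPP set 2 or 3, cultured aPP set 1 or 2, or cultured pPP set 1, at adjusted p-values of 0.0599 to 0.274. Without cultured pPP set 2 it held (3.89, adjusted p = 0.023).

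A probe set to which the annotation gives no gene symbol also rose in pPPs only. It read 92.3, 58.5 and 81 in pPPs and 617 and 466 in cultured pPPs. In aPPs it read 75, 53 and 72.8, and in cultured aPPs 61.6 and 91.5. Cultured pPPs therefore stood apart from the 8 other arrays, which overlapped. The response was 2.58 in pPPs (adjusted p = 3.22e-05) and 0.15 in aPPs (adjusted p = 0.816), with a difference of 2.43 (SE 0.34, 95% interval 1.72 to 3.15, adjusted p = 0.0195, limma). The regional difference was 0.16 before culture and 2.60 after it. Leaving out aPP set 3, cultured aPP set 1 or 2, or cultured pPP set 1 ended the call, at adjusted p-values of 0.0575 to 0.274, and without cultured pPP set 2 it held (2.63, adjusted p = 0.023).

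**Figure D2:**
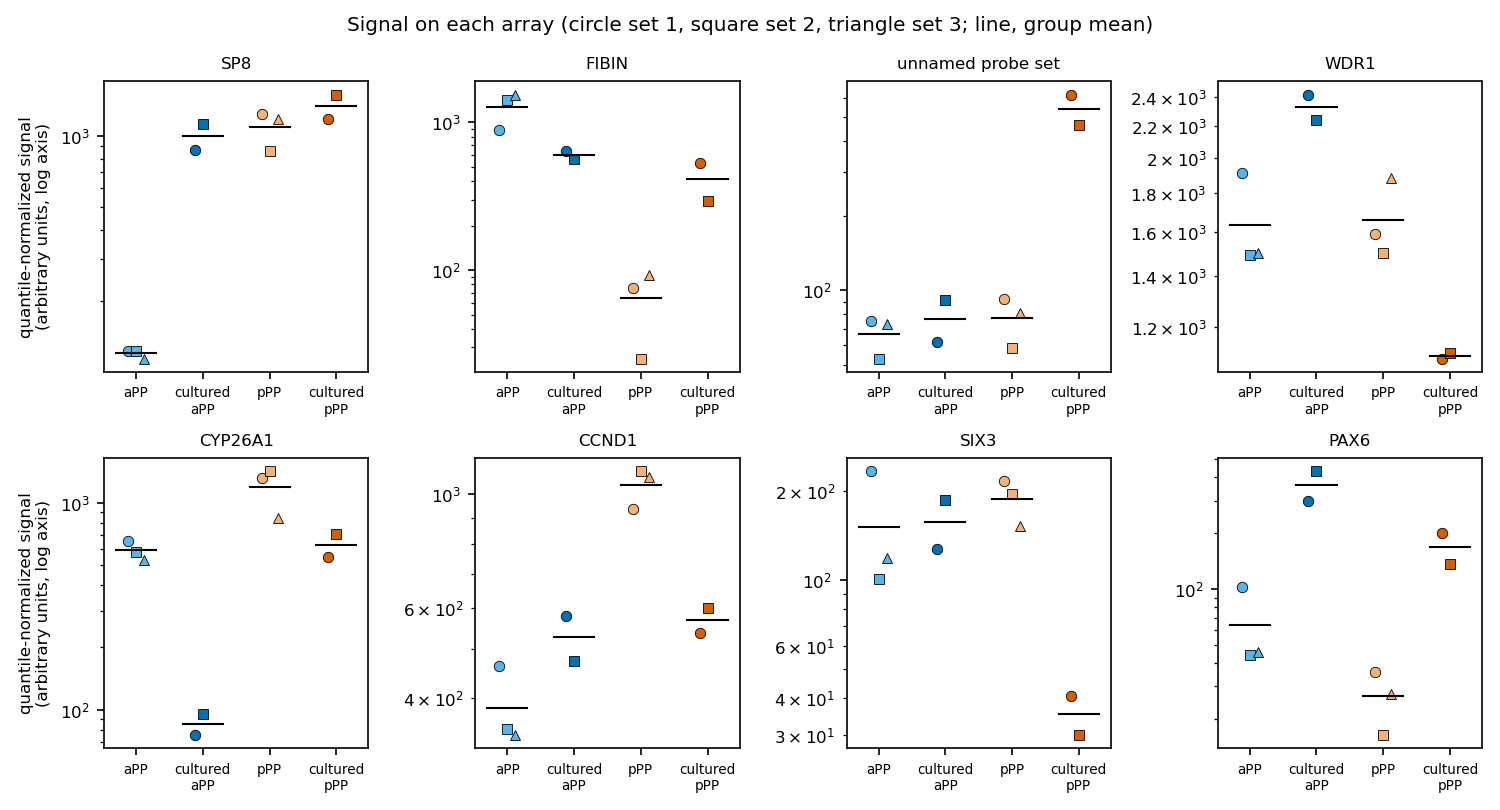
Quantile-normalized signal (arbitrary units, log axes that differ between panels) of 8 probe sets on each of the 10 arrays, with a line at each group mean. SP8 is low only in aPPs (114 to 123), FIBIN is lowest in pPPs (25.2 to 93.1), the unnamed probe set is high only in cultured pPPs (466 and 617), and PAX6 is higher after culture in both regions.

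The named genes next in order of p did not pass the test of the difference, and their values follow as a description of where each response lay. With the set number as a block, 5 of them were called beside the CYP26 genes described further on, at adjusted p-values of 0.0244 for WDR1, 0.0413 for PIK3R3 and 0.045 for each of PPP1R13B, BHLHE22 and SLC12A3. With the block set within uncultured and within cultured arrays, a choice made after seeing the data, all 15 probe sets at an adjusted p under 0.1 were called. In a first group, expression rose in pPPs while the anterior change was not called. PPP1R13B, a p53-binding regulator of apoptosis, read 298, 196 and 244 in pPPs and 507 and 571 after culture, against 640, 759 and 657 in aPPs and 476 and 536 after culture. Posterior signals came up to the anterior ones, and cultured arrays of the 2 regions overlapped. Its difference was 1.52 (SE 0.25, adjusted p = 0.0759, limma), and 2 other probe sets of the gene gave 0.61 and 1.11.

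CFI, a protease of the complement system, read 279, 121 and 190 in pPPs and 990 and 674 after culture, while aPPs before and after culture overlapped at 607 to 967. UPK1B, a tetraspanin of epithelial surface plaques, read 18.3 to 51.4 in pPPs and 259 and 136 after culture, where the anterior arrays ranged from 152 to 262. The differences were 1.97 for CFI (adjusted p = 0.107) and 2.24 for UPK1B (adjusted p = 0.111). PERPB (1.51, adjusted p = 0.107) and SAMD11 (1.47, adjusted p = 0.114) followed the same course. Other probe sets gave 0.03 for CFI and 0.26 for SAMD11, and 2.80 and 1.65 for UPK1B. In each of these 5 genes pPPs were lower than aPPs before culture, from -1.44 for PPP1R13B to -2.23 for UPK1B, and the regional difference after culture lay between -0.27 and 0.09. SPTSSB, a small subunit of serine palmitoyltransferase, differed from them. It rose in pPPs from 10.3 to 17.7 up to 50.8 and 42.6, above the 25.8 reached in aPPs (difference 1.34, adjusted p = 0.121).

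In a second group, expression fell in aPPs while pPPs gave no called change. BHLHE22, a basic helix-loop-helix repressor of neural cells, read 987, 914 and 1600 in aPPs and 435 and 244 in cultured aPPs. It read 271 to 329 in pPPs and 374 and 327 in cultured pPPs, so that cultured aPPs reached the posterior range. Its difference was 1.92 (adjusted p = 0.0848). CHRNA4, a nicotinic acetylcholine receptor subunit, fell from 95.9, 133 and 203 to 23.3 and 8.9 in aPPs, with 20.3 to 72 on the 5 posterior arrays (difference 2.62, adjusted p = 0.0934). SLC5A1, a sodium-glucose cotransporter, gave 2.80, BHLHE41, a repressor of the circadian clock, gave 1.48, and SLC12A3, a sodium-chloride cotransporter, gave 2.09, each at an adjusted p of 0.107. PDGFD, a platelet-derived growth factor ligand (1.54, adjusted p = 0.107), had no present call on the 2 cultured arrays with usable calls. EPAS1, an oxygen-regulated transcription factor, fell in aPPs from 939, 1530 and 1120 to 436 and 544, and read 97.6 to 298 in pPPs and 373 and 541 after culture, where the change was not called (adjusted p = 0.0665). Its difference was 2.38 (adjusted p = 0.107). Other probe sets of these genes gave 0.25 and 0.38 for SLC12A3, 0.58 for EPAS1, 1.05 and 1.37 for SLC5A1, and 1.48 for PDGFD.

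CYP26A1 and CYP26C1, 2 enzymes that break down retinoic acid and whose genes are neighbours in the RefSeq gene order of assembly GRCg7b, fell in aPPs far more than in pPPs without the difference passing the test. CYP26A1 read 653, 580 and 529 in aPPs and 75.2 and 95.5 in cultured aPPs. In pPPs it read 1310, 1420 and 839, and after culture 545 and 706. It fell in both regions, by 2.58 in aPPs and by 0.89 in pPPs, and the difference was 1.69 (SE 0.30, adjusted p = 0.0821, limma). CYP26C1 read 320, 202 and 186 in aPPs, 46 and 28.4 in cultured aPPs, 617, 378 and 364 in pPPs, and 507 and 281 in cultured pPPs. Only the anterior fall of CYP26C1 was called (-2.23, against -0.21 in pPPs), and the difference was 2.02 (adjusted p = 0.124). With the set number as a block both differences were called, at adjusted p-values of 0.0132 for CYP26A1 and 0.0059 for CYP26C1. For these 2 genes the regions moved apart, since the posterior excess went from 0.97 to 2.66 for CYP26A1 and from 0.89 to 2.91 for CYP26C1.

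In the other direction, some genes rose in aPPs while pPPs gave no called change. LOC419390 read 20.8, 26.8 and 16.5 in aPPs and 112 and 158 after culture, with 21.9 to 26.2 in pPPs and 34.6 and 35.6 in cultured pPPs (difference -1.63, adjusted p = 0.0848). PIK3R3, a regulatory subunit of phosphoinositide 3-kinase, read 232 to 312 in aPPs and 693 and 681 after culture, with 203 to 331 on the posterior arrays (difference -1.50, adjusted p = 0.107). Cultured aPPs thus stood apart from the 8 other arrays for both. Of 3 further PIK3R3 probe sets, 2 gave differences of -0.95 and -1.05 and 1 gave -0.05. STMN2, a microtubule regulator of neurons, read 20.1 to 37.2 in aPPs and 191 and 150 after culture, and 36 to 58.4 and then 63.4 and 82.7 in pPPs (difference -1.58, adjusted p = 0.156). A second STMN2 probe set gave -1.99. SERTAD4 rose in aPPs as well (difference -1.40, adjusted p = 0.117, with -0.49 from a second probe set). For SEMA6A, a transmembrane semaphorin, the probe set with the lowest p had no present call on the 6 uncultured arrays. It read 41.4 and 30.9 in cultured aPPs against 14.4 and 12 in cultured pPPs. The other SEMA6A probe sets gave differences of -0.62 and -0.48. Their changes in aPPs, 0.58 and 0.18, were not called (adjusted p = 0.111 and 0.66). The last of them was present on 2 aPP and 3 pPP arrays.

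Other genes fell in pPPs only. SIX3, a homeodomain factor of the forebrain, eye and anterior placodes, read 216, 195 and 152 in pPPs and 40.5 and 30 in cultured pPPs. It read 233, 101 and 119 in aPPs and 127 and 187 in cultured aPPs. The cultured pPP arrays were the lowest of the 10, and the other groups overlapped. The difference was -2.09 (SE 0.41, adjusted p = 0.107, limma), and -1.95 (adjusted p = 0.126) without cultured pPP set 2. CCND1, the cyclin that carries cells through G1, read 936, 1110 and 1080 in pPPs and 536 and 601 after culture, and 462, 348 and 339 in aPPs and 580 and 474 after culture. The 2 cultured groups overlapped, the difference was -1.31 (adjusted p = 0.0848), and a second probe set gave -1.21 (adjusted p = 0.0934). NUAK2, a kinase related to AMPK, fell from 370 to 560 in pPPs down to 166 and 137, with 110 to 164 on the anterior arrays (difference -1.42, adjusted p = 0.198). MYCN, a transcription factor of proliferating progenitors, gave -1.75 (adjusted p = 0.201), while a second and brighter probe set gave -0.47. GJA1, the gap junction protein connexin 43, gave -1.58 (adjusted p = 0.234), and PPM1D, a phosphatase of the DNA damage response, gave -1.07 (adjusted p = 0.293). NKAIN1 (-1.16, adjusted p = 0.177) and AKAP7, an anchoring protein of protein kinase A that had no present call in aPPs or cultured pPPs (-1.07, adjusted p = 0.293), were not called in either region. Other probe sets gave -0.97 for NKAIN1 and 0.07, -0.23 and -0.05 for AKAP7, the last of them the brightest, at 133 to 260.

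WDR1, which helps cofilin to take apart actin filaments, was the one probe set called in opposite directions in the 2 regions. It read 1910, 1490 and 1500 in aPPs and 2420 and 2240 in cultured aPPs. It read 1590, 1500 and 1880 in pPPs and 1090 and 1110 in cultured pPPs. The uncultured groups overlapped, and the cultured groups lay on either side of them. WDR1 rose by 0.52 in aPPs (adjusted p = 0.03) and fell by 0.57 in pPPs (adjusted p = 0.0169), and the difference of -1.09 missed the threshold (SE 0.18, adjusted p = 0.0752, limma). A second probe set gave -0.93, with 0.73 in aPPs and -0.20 in pPPs.

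The same quantity is the regional difference after culture minus that before it, from the same arrays, so that the values that follow describe it again and lend it no support. The 15 probe sets at an adjusted p under 0.1 stand for 13 genes or unnamed probe sets. Among these 15, the regional difference was smaller after culture in 11 and larger in 4. Both probe sets of FIBIN and of CCND1 are counted in the 11. The regional difference was called before culture in 12, again with both probe sets of these genes, and after culture in 4. The 4 in which it grew were the unnamed probe set that rose in pPPs only, CYP26A1, WDR1 (from 0.02 to -1.07) and LOC419390 (from 0.08 to -1.54). CHRNA4 went from -1.76 to 0.85. Over all probe sets, pPPs and aPPs differed in 408 (1.89%) before culture and in 50 (0.232%) after it, with fewer arrays in the second comparison.

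**Figure D3:**
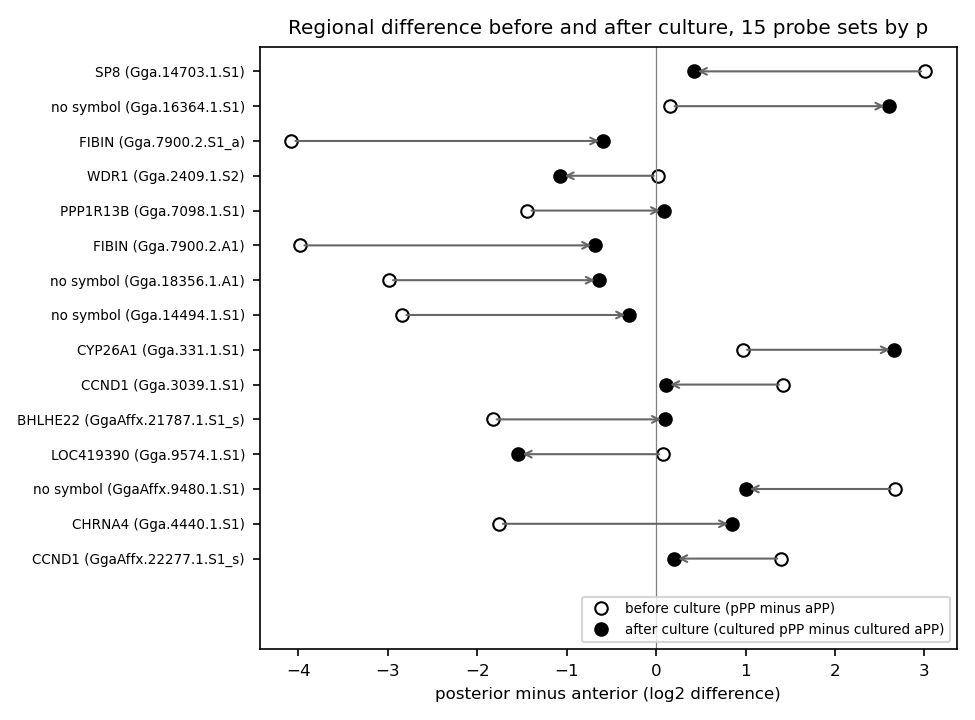
Posterior minus anterior log2 difference before culture (open circles) and after it (filled circles) for the 15 probe sets with the lowest p, ordered from the top; the arrow is the region-specific response. In 11 of them, among which are both probe sets of FIBIN and of CCND1, the filled circle lies nearer 0. In the second from the top, which has no symbol, and in CYP26A1, WDR1 and LOC419390 it lies farther out.

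The lists of genes chosen for the ectoderm, its neighbours, signalling pathways and the response to explant culture are described with 1 probe set per gene, by counts and medians. Some genes stand in more than 1 list. The lists were chosen with earlier results of these data known, so that the calls and counts of their members are a description only. FIBIN and SP8 were the only list members with a called difference, against 0.0139% of all probe sets, and an unadjusted p under 0.05 was reached by 2.84% of all probe sets in the higher and 3.34% in the lower direction. In the list for nonneural ectoderm, 13 of 16 tested genes had a higher response in pPPs, with a median of 0.31 against 0 over all probe sets, and 6 had an unadjusted p under 0.05. In pPPs 6 genes of this list rose and in aPPs 1 rose, against 2.24% and 2.10% of all probe sets. KRT7, a keratin of simple epithelia, rose in pPPs from 456, 196 and 446 to 1150 and 859, while aPPs and cultured aPPs overlapped at 989 to 1290 (difference 1.28, adjusted p = 0.405). MSX2, a homeodomain target of BMP signalling, rose in pPPs from 1.71, 5.32 and 3.87, with no present call, to 52.5 and 32.1. It read 18.9 to 42.3 on the anterior arrays (difference 1.19, adjusted p = 0.32). GATA3, a zinc finger factor of epidermal ectoderm (1.23, adjusted p = 0.734), and CDH1, or E-cadherin (0.46, adjusted p = 0.778), were the other members, beside FIBIN and EPAS1.

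The list for the neural plate lay on the other side, with a lower response in pPPs in 13 of 16 genes and a median of -0.39. That median was -0.28 with all probe sets of each gene. The 5 with an unadjusted p under 0.05 were SIX3, OTX2 and HESX1, which are anterior homeodomain factors, the Wnt antagonist FRZB, and LMO1. OTX2 read 1260, 1450 and 1440 in pPPs and 785 and 547 in cultured pPPs, where it fell by 1.06. In aPPs it read 915 to 1300 before and 936 and 843 after culture, a change of -0.35 that was not called, and the difference was -0.71 (adjusted p = 0.554). By a second OTX2 probe set the fall was called in both regions, at -1.56 in pPPs and -0.95 in aPPs. Its difference was -0.61 and was not called. HESX1 fell in both regions, from 367 to 476 down to 104 and 135 in aPPs, and from 405 to 512 down to 66 and 72.1 in pPPs (difference -0.81, adjusted p = 0.589). In the list for anterior placodes and anterior ectoderm, which shares SIX3, OTX2 and HESX1 with it, the median was -0.15 over 12 genes. The separate lens list had a median of 0 over 15 tested genes, of which 7 were positive and 8 negative. PROX1, a homeodomain factor of the lens, rose in both regions, from 9.98 to 26.9 up to 108 and 151 in aPPs and from 20.4 to 25 up to 53.7 and 59.9 in pPPs (difference -1.27, adjusted p = 0.32).

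Among signalling pathways, 10 of 12 tested genes of the retinoic acid list had a higher response in pPPs, with a median of 0.59. It was 0.42 with all probe sets of each gene. Beside the 2 CYP26 genes, RARB, a receptor that retinoic acid itself induces, fell in aPPs from 550, 531 and 642 to 282 and 251, and read 153 to 280 in pPPs and 314 and 252 after culture (difference 1.35, adjusted p = 0.233). DHRS3, which turns retinaldehyde back to retinol, gave 1.04 (adjusted p = 0.636) and was not called in either region. No gene of the list rose in either region, while 2.24% of all probe sets rose in pPPs and 2.10% in aPPs.

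Of 29 tested genes of the BMP and activin list, 10 had a higher and 2 a lower response in pPPs at an unadjusted p under 0.05, with a median of 0.12. The ligands were BMP2, BMP5 and GDF3. BMP2 rose in pPPs from 89.4, 31.4 and 60 to 186 and 191, whereas aPPs read 133 to 353 and cultured aPPs 179 and 161 (difference 1.84, adjusted p = 0.319). The pseudoreceptor BAMBI rose in pPPs as well, from 202 to 370 up to 738 and 662 (difference 1.45, adjusted p = 0.274). Of the targets and inhibitors within the cell, ID1 fell in aPPs from 663, 737 and 675 to 282 and 288, and read 299 to 435 on the posterior arrays (difference 0.97, adjusted p = 0.224), and SMAD6 gave 1.23 with no called change in either region. SMAD7 (0.96), ID3 (0.73), ID4 (0.86) and MSX2 made up the remainder. The extracellular antagonist follistatin, FST, moved the other way. It rose in aPPs from 8.16 to 13.7 up to 56.7 and 71.3, below the 198 to 419 of the posterior arrays (difference -1.49, adjusted p = 0.32), and FSTL1 gave -1.04.

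The Wnt list held 4 genes with a higher and 5 with a lower response in pPPs among 29 tested, at an unadjusted p under 0.05. WNT11 rose in pPPs from 6.91 to 12.3 up to 89 and 53.4 (difference 1.64, adjusted p = 0.333), and WNT5A fell in aPPs from 72.6 to 129 down to 28.4 and 23.8 (difference 1.25, adjusted p = 0.346). Both are ligands known for signalling without beta-catenin. The secreted antagonist SFRP1 fell in both regions, by 2.12 in pPPs and by 1.60 in aPPs (difference -0.52). In the FGF list, with a median of -0.07 over 19 genes, all 4 genes at an unadjusted p under 0.05 lay lower in pPPs. DUSP6, a phosphatase of ERK that FGF signalling induces, fell in pPPs from 701, 1090 and 524 to 110 and 205. It read 210 to 365 in aPPs and 132 and 133 in cultured aPPs, a change of -1.04 that was not called (difference -1.13, adjusted p = 0.673). DUSP4 fell in pPPs too (difference -0.98, adjusted p = 0.414). FGF13 (-0.87) and DUSP5 (-0.76) were not called in either region, and DUSP5 changed by 0.02 in pPPs and 0.78 in aPPs. Over the whole FGF list, 4 genes were called lower in pPPs and 3 in aPPs, so that falls were not confined to pPPs. The shares called lower among all probe sets were 1.70% in pPPs and 1.61% in aPPs.

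In the Notch list 3 targets, HES4, HEY1 and HES5, rose in aPPs and no gene was called in pPPs, though the difference was called for none. Of all probe sets, 2.10% rose in aPPs and 3.93% were called in pPPs. HEY1 rose in aPPs from 155, 175 and 176 to 553 and 526, and read 213, 312 and 236 in pPPs and 362 and 494 after culture, a change of 0.72 (adjusted p = 0.0534), so that the difference was -0.88 (adjusted p = 0.478). HES4 gave -1.18 (adjusted p = 0.438). The median of the list was -0.17 over 12 genes, of which 4 were positive and 8 negative. At an unadjusted p under 0.05, 1 gene had a higher response in pPPs and 2 had a lower one. The higher one was JAG2, with a difference of 1.01 (adjusted p = 0.676).

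Other genes responded in both regions. The list for the unfolded protein and amino acid response had a median of -0.03 over 23 genes, of which 11 rose in pPPs and 12 in aPPs. Over all probe sets, 2.24% rose in pPPs and 2.10% in aPPs. PSPH, the last enzyme of serine synthesis, rose from 65.3 to 70.4 up to 1150 and 1020 in pPPs and from 40.3 to 74 up to 1410 and 1350 in aPPs (difference -0.55, 95% interval -1.16 to 0.06). CEBPB, a stress-induced leucine zipper factor, rose by 3.44 in pPPs and 3.95 in aPPs. Genes of sterol and fatty acid synthesis rose in 8 and 6 of 21 cases, with a median difference of 0.14, or -0.04 with all probe sets of each gene. No gene of the cytosolic ribosomal proteins was called in either region among 26, with a median of 0.04. Among all probe sets 3.93% were called in pPPs and 3.71% in aPPs.

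PAX6 rose in both regions. It read 103, 44.1 and 46.2 in aPPs and 298 and 432 in cultured aPPs, and 35.8, 16.4 and 27.3 in pPPs and 201 and 137 in cultured pPPs. Cultured arrays lay above uncultured arrays without overlap in each region, and anterior arrays above posterior ones at each time. The response was 2.13 in pPPs and 2.30 in aPPs, and the difference of -0.17 (SE 0.43, adjusted p = 0.965, limma) had a 95% interval of -1.09 to 0.75. Its sign turned in 5 of 25 alternatives.

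PNOC, the precursor of the opioid-like peptide nociceptin, rose in pPPs from 143, 65.1 and 130 to 396 and 407. In aPPs it read 480, 280 and 320 before and 588 and 713 after culture, a change of 0.86 that was not called (adjusted p = 0.101). The difference was 0.90 (95% interval 0.09 to 1.71, adjusted p = 0.766). A second PNOC probe set gave a difference of -0.30, and its change of 0.67 in pPPs was not called (adjusted p = 0.378). The differences of SST1, a somatostatin precursor (0.42), the somatostatin receptor SSTR5 (-0.13) and the nociceptin receptor OPRL1 (-0.63) were not called, nor were their responses in either region. A second SSTR5 probe set gave a difference of the other sign, 0.21, which was not called either. GBX2, a homeodomain factor of posterior placode progenitors, read 161 to 239 in pPPs and 203 and 212 after culture, above 54.3 to 105 in aPPs and cultured aPPs (difference 0.39, 95% interval -0.29 to 1.08). The preplacodal genes DLX5 (0.27, 95% interval -0.13 to 0.67) and EYA2 (0.40, 95% interval -0.50 to 1.30) were not called in any of these comparisons of culture. PAX7, a factor of the neural plate border, had no present call in aPPs (difference 0.07). PAX2 did not pass the filter on detection.

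**Figure D4:**
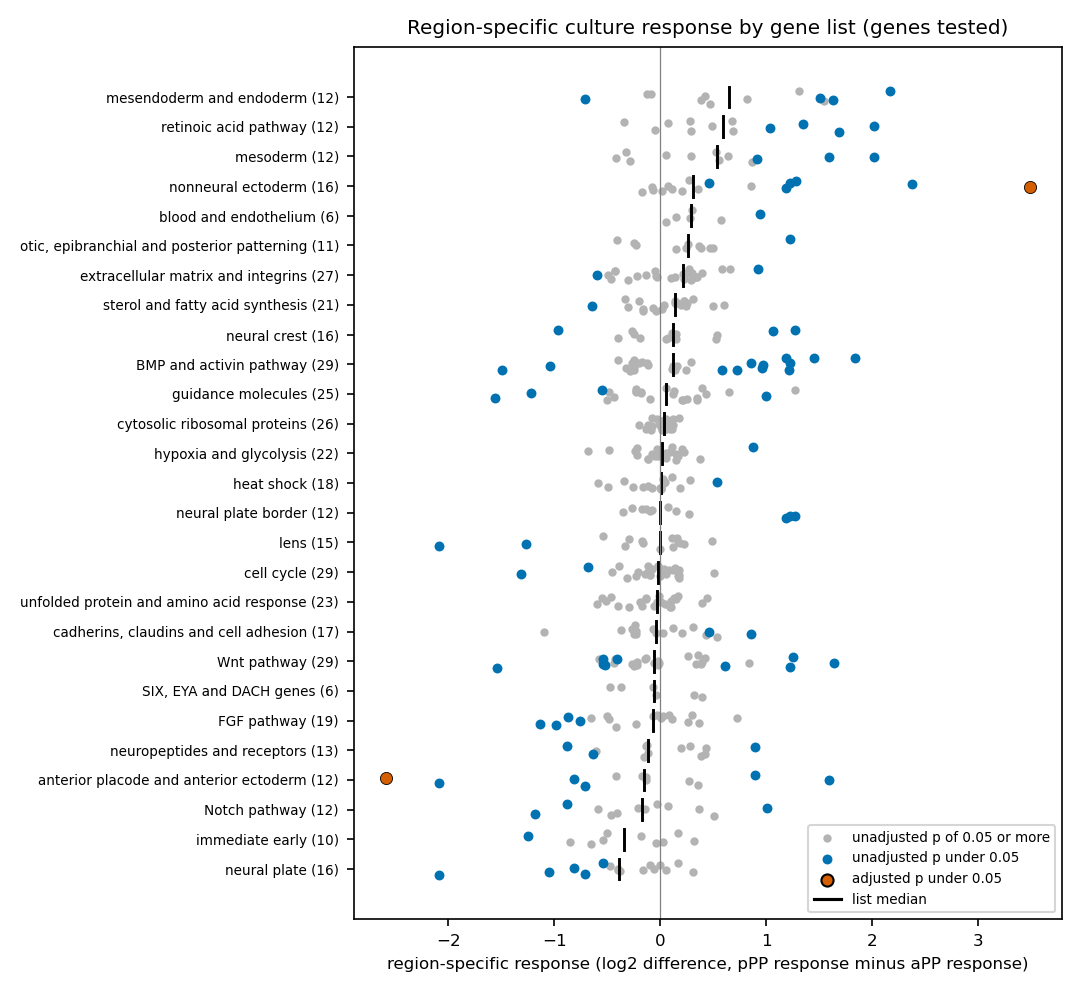
Region-specific response of each tested gene (points, log2 difference of the pPP response minus the aPP response) in the gene lists with at least 6 tested genes, ordered by list median (black lines, from -0.39 for neural plate to 0.65 for mesendoderm and endoderm). SP8 at -2.59 and FIBIN at 3.49 are the called members, in orange, and blue points have an unadjusted p under 0.05.

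Markers of other cells that the dissection could hold also moved with these groups, and in bulk tissue fewer cells of a type and less RNA per cell cannot be told apart. The list for mesendoderm and endoderm had the highest median among lists with at least 6 tested genes, 0.65, with 9 of 12 genes positive and none called. Over its defining markers, of which 4 of 5 on the array were present on 2 or more arrays, the summed signal was 295 to 1790 in aPPs, 217 to 261 in pPPs, 263 to 479 in cultured aPPs and 171 to 227 in cultured pPPs. HHEX, a homeodomain factor of anterior endoderm, read 926, 222 and 1390 in aPPs and 106 to 366 on the 7 other arrays, and SOX17, an endodermal factor, 98.6, 11.9 and 173 against 0.48 to 17.5. Thus aPP sets 1 and 3 were high for both and aPP set 2 was not. The part of these cells in the differences of SP8, FIBIN and the other genes was not tested.

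The summed mesoderm markers were 1120 to 1330 in aPPs, 272 to 623 in pPPs, 1790 to 2110 in cultured aPPs and 894 to 1220 in cultured pPPs, mostly from FOXC2, and 7 of the 8 were present on 2 or more arrays. TBXT lay on the other side, at 40.8 to 47.4 in pPPs against 13.1 to 23.9 in aPPs. After culture it read 30.7 and 29.6 in pPPs against 14.6 and 18.3 in aPPs. TWIST1, TCF15 and MESP1 overlapped between aPPs and pPPs before culture, and TBX6 had no present call. The summed markers of nonneural ectoderm were 1690 to 2130 in aPPs, 732 to 1330 in pPPs, 2040 to 2060 in cultured aPPs and 1590 to 1920 in cultured pPPs, with 3 of 4 present on 2 or more arrays. KRT7 made up much of that sum, and TFAP2A, the other bright marker of the list, read 498 to 818 in pPPs and 512 to 667 in aPPs, which overlapped. Neural plate markers summed to 291 to 342 in aPPs, 400 to 738 in pPPs, 157 to 257 in cultured aPPs and 303 to 317 in cultured pPPs, with 2 of 3 present on 2 or more arrays and SOX2 present on 1 of 8. The posterior excess lay in ZEB2, at 90.1 to 358 in pPPs and 2.55 to 12 in aPPs. SOX3, the other bright marker, overlapped between the regions, at 304 to 375 in pPPs and 288 to 333 in aPPs. Neural crest markers, all 3 present on 2 or more arrays, summed to 57.3 to 90.7 in aPPs, 69.7 to 105 in pPPs, 92.6 to 116 in cultured aPPs and 137 to 260 in cultured pPPs. The rise lay in SNAI2, from 26.7 to 49.4 up to 200 and 94.8 in pPPs and from 19.1 to 39.9 up to 88 and 55.5 in aPPs. SOX10 read 13.4 to 20.1 throughout. FOXD3 overlapped in pPPs, at 16.3 to 59.2 before and 40.7 and 23.4 after culture, and fell in aPPs, from 23 to 36 down to 14.9 and 18.8. Blood and endothelial markers summed to at most 33.8 on any array. The part of any of these cells in the region-specific response was not tested.

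The number of probe sets with a region-specific response depended on single arrays. It was 36 without aPP set 1, 54 without cultured pPP set 2, 7 without pPP set 1 and 1 to 4 without any other array. SP8 was called in each of these 10 cases. The 54 without cultured pPP set 2, 14 higher and 40 lower, include all 3 of the calls and 8 of the 15 at an adjusted p under 0.1, with PIK3R3 (-1.81, adjusted p = 0.0324) and CHRNA4 (3.25, adjusted p = 0.023) among them.

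**Figure D5:**
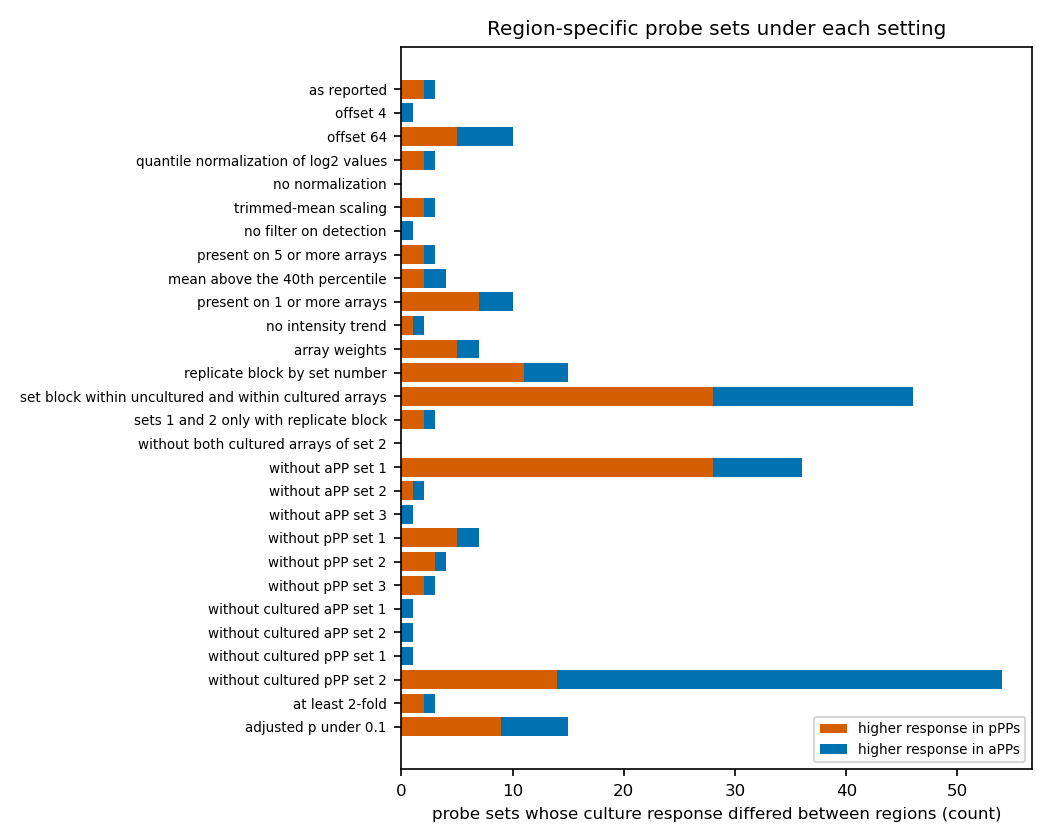
Number of probe sets whose culture response differed between pPPs and aPPs (bars from 0, higher response in pPPs in orange, in aPPs in blue) as reported and under each of the other settings. The count is 3 as reported, 15 with the set number as a block and 54 without cultured pPP set 2.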

How the data were processed

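Per the labels, total RNA was isolated with a Stratagene kit, prepared with NuGEN Ovation V2 and its biotin module, and hybridised to 1 array per sample. The authors deposited a MAS5 signal for every probe set, which is an intensity on a linear scale, together with its detection call. The MAS5 version is not stated in these sources. Arrays were not scaled to one another, with median signals of 6.2 to 21.3, and each array with usable calls detected 44.7 to 50.2 percent of its probe sets. The number of arrays limits the precision.

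Signals were quantile normalized over the 10 arrays, 16 was added and log2 taken. Control probe sets (96) were left out, and of 38439 others the 21591 called present on 2 or more of 8 arrays were tested, which stand for 9728 genes. The calls of 2 columns that carry the same name, cultured anterior set 2, were not used. Symbols came from the platform annotation (27168 probe sets with 1, 177 with several, 11094 with none), of which 26853 were matched by gene identifier to RefSeq and none changed. No sequences are shown.

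One limma 3.58.1 model of 4 group means (R 4.3.3, variances with an intensity trend, two-sided, Benjamini-Hochberg adjustment over all tested probe sets) gave the responses and their difference. Groups of 2 arrays share the spread of the others. Plots used Python 3.11.15 and matplotlib 3.10.9. The procedure was tested on simulated data whose noise was independent between arrays, with no effect of the set number. That test therefore does not bear on how the calls depend on the sets. The comparison, members, gene lists and tests were chosen with earlier results of these data known. Genes named are the 15 in each direction that were called or, in the places left, had the lowest p, up to 4 per list by p, and genes of the study, and others were added for context after their values were seen. Departures from the group means correlated between aPPs and pPPs of one set number at 0.439, 0.182 and 0.226 for sets 1, 2 and 3. Between cultured and uncultured arrays of one region they correlated at only -0.106 to 0.0772. Between cultured aPPs and cultured pPPs the value was 0.1, necessarily the same for both sets because each group has 2 arrays. What the set numbers stand for is not stated. The set number was therefore run as a block over all arrays and, chosen after seeing the data, within uncultured and within cultured arrays. The other alternatives were offsets, normalizations, filters, variances without the trend, array weights, thresholds and leaving out arrays.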

Additional observations from a re-analysis of the deposited data

Results flagged for a closer look

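Each of the 3 probe sets with a called difference between the culture responses of pPPs and aPPs calls for a second look, and the difference was tested in each. For FIBIN it was 3.49, called in 15 of 25 alternatives, with a range of 2.85 to 3.89. For the probe set without a symbol it was 2.43, called in 16 of 25. For SP8 it was -2.59, called in 23 of 25, with a range of -2.77 to -2.24, the exceptions being no normalization (-2.58, adjusted p = 1) and the absence of both cultured arrays of set 2 (-2.58, adjusted p = 0.0514). No group has more than 3 arrays, so that single arrays were not tested as outliers.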

How the results depend on the processing

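The count of 3 region-specific probe sets became 1 with an offset of 4 or no filter on detection, 10 with an offset of 64 or with a present call on 1 or more arrays (an alternative chosen after seeing the data), 7 with array weights, 15 with the replicate block or at an adjusted p under 0.1, 46 with the block within uncultured and within cultured arrays (also chosen after seeing the data), and 0 with no normalization or without both cultured arrays of set 2. Leaving out 1 array gave 1 to 54. Responses in one region only, 3 as reported, came to 1 with an offset of 4 or no filter, 8 with an offset of 64, 9 with a present call on 1 or more arrays, 6 with array weights, 12 with the replicate block, 13 at an adjusted p under 0.1, 0 with no normalization or without both cultured arrays of set 2, and 1 to 47 without 1 array. Where limma gave 0, 150 probe sets with no normalization and 1612 without both cultured arrays of set 2 had an unadjusted p under 0.05. The culture response of pPPs, 849 as reported, came to 18 with no normalization, 516 without a filter, 385 at a 2-fold minimum, 1455 at an adjusted p under 0.1, and 165 to 981 without 1 array. The culture response of aPPs, 801 as reported, came to 34 with no normalization, 508 without a filter, 1614 with array weights, 135 without both cultured arrays of set 2, 388 at a 2-fold minimum, 1255 at an adjusted p under 0.1, and 147 to 861 without 1 array. The cause of these shifts was not tested, apart from the thresholds.

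The difference for PAX6 turned sign with an offset of 4 (0.02), with sets 1 and 2 only and a block (0.01), without both cultured arrays of set 2 (0.34), and without cultured aPP set 2 or cultured pPP set 2 (0.08 to 0.09), and without 1 array it ranged from -0.49 to 0.09. That for SSTR5 turned with sets 1 and 2 only (0.05), and that for PAX7 with an offset of 4 (-0.27) or no normalization (-0.03), none being called in any setting. With 2 cultured arrays per region, an uncalled difference does not show an equal response.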
